A study of Mus musculus with 22 samples.

Results

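The ribosome pulldown of outer hair cells at postnatal day 14 (P14) was compared with RNA of the whole cochlea, in 4 of the 22 mouse libraries of the series. These are the libraries titled 14d-1 and 14d-2, each with an immunoprecipitated (IP) library and an input library. All 4 came from mice of the genotype PrestinCreERT2/+;RiboTagHA/+, which had received tamoxifen, at a labelled dose of 3 mg per 40 g of body weight for mice younger than 21 days. The CreERT2 recombinase is made from the prestin gene, and tamoxifen lets it act, so that recombined cells carry a ribosomal protein tagged with haemagglutinin. For the IP libraries, an antibody to this tag captured the ribosomes with the RNA bound to them. The input libraries hold total RNA of whole cochleae of the same genotype, treated alike, with no antibody. The design speaks of independent biological duplicates or triplicates, and no pulldown from mice without Cre was analysed here. Input and IP therefore differ both in the cells they represent and in the step of the pulldown itself, and these cannot be told apart.

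Outer hair cells are the sensory cells of the organ of Corti that change length with their membrane voltage and so amplify sound. Prestin (Slc26a5) is their motor protein, oncomodulin (Ocm) is a calcium-binding protein abundant in them, and Helios (Ikzf2) is a transcription factor of their maturation. Mice begin to hear at about this age. In a ribosome pulldown, an mRNA is expected to be retained when the tagged cells make it and ribosomes are bound to it, and RNA of other cells is carried along to an extent that differs between experiments.

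The 2 IP libraries held 32264453 and 44860629 reads in all, and the 2 input libraries 57321106 and 57555956. Values are CPM, read counts scaled so that all reads of a library sum to 1000000, and 1 read was worth 0.0174 to 0.0310 CPM. Reads outside annotated genes made up 30.5% and 37.9% of the IP libraries and 12.2% and 12.4% of the input libraries. IP replicate 1 had 10810 genes at a CPM of at least 1, against 15203 in IP replicate 2 and 13706 and 15006 in input. It also gave 10.2% of its gene reads to Gm42418, an annotated gene that overlaps ribosomal RNA sequence, against 1.22% in IP replicate 2 and 5.83% and 2.98% in input. Across 18737 genes, log2 values of the replicates had a Pearson r of 0.864 in IP and 0.925 in input, and genes are not independent replicates.

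Of 18737 genes tested, 321 (1.71%) were higher and 494 (2.64%) were lower in IP than in input at P14, by limma on log2(CPM + 1) with a Benjamini-Hochberg adjusted p under 0.05. Both IP libraries were above both input libraries for 3419 genes (18.2%) and below them for 5854 (31.2%). The median gene stood 0.28 lower in IP on the log2 scale (P14 median of all genes -0.28), so changes are given relative to that median, while p-values refer to the CPM as deposited. With trimmed-mean (TMM) scaling, which sets the libraries' bulk of genes level, 1795 genes (9.58%) were higher and 1559 (8.32%) lower, and 799 of the 815 calls were shared. Without IP replicate 1, without input replicate 1 or without input replicate 2 most of the 815 calls were lost. Without IP replicate 2, which leaves IP replicate 1 alone, the number of calls rose instead.

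**Figure D1:**
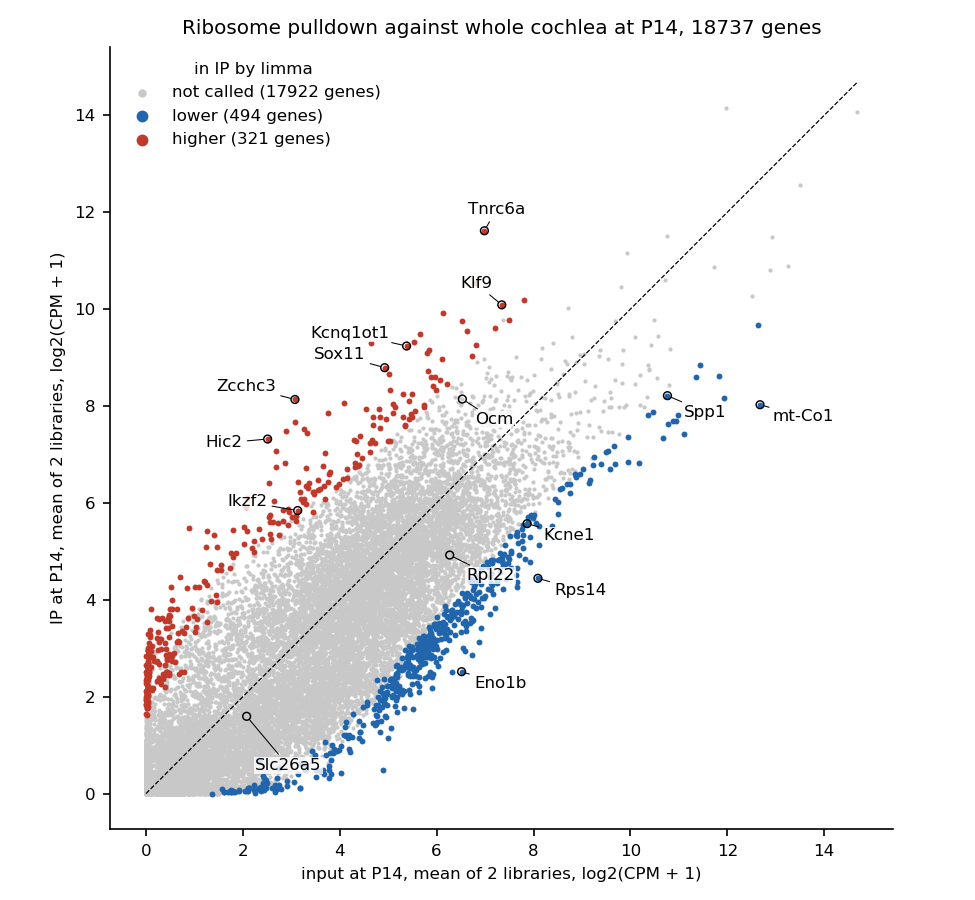
Mean log2(CPM + 1) of the 2 IP libraries (vertical axis) against that of the 2 input libraries (horizontal axis) at P14 for 18737 genes, with 321 genes higher (red) and 494 lower (blue) in IP by limma and the dashed line marking equal values. Tnrc6a lies farthest above the line among abundant RNAs and mt-Co1 far below it, while Slc26a5 and Rpl22 lie among the genes that were not called.

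Ikzf2 (ENSMUSG00000025997; chromosome 1, 69531214 to 69687245 on GRCm38) was at 43.0 and 73.8 CPM in the IP libraries and at 10.8 and 5.53 CPM in the input libraries. Both IP values lie above both input values. The log2 change was 2.98 (SE 0.77, limma adjusted p = 0.0307), on means of 58.4 ± 21.8 CPM in IP (SD, n = 2) and 8.15 ± 3.72 CPM in input. The call was lost when any 1 of the 4 libraries was left out, with the same direction each time. Ocm (ENSMUSG00000029618; chromosome 5, 144019804 to 144026670) was at 294 and 270 CPM in IP and at 99.8 and 83.8 CPM in input. The groups did not overlap and the replicates lay close together, yet the log2 change of 1.89 did not pass the test as deposited (limma adjusted p = 0.171). With TMM scaling it did (limma adjusted p = 0.00386, range over 21 alternatives 0.000135 to 0.558).

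Slc26a5 (ENSMUSG00000029015; chromosome 5, 21810655 to 21865604), the gene of prestin, whose promoter drives the Cre used here, had 0.930 and 3.72 CPM in IP and 2.57 and 3.996 CPM in input. The values overlap, and the change did not pass the test (log2 -0.21, limma adjusted p = 0.849), with a positive sign in 3 alternatives. Rpl22 (ENSMUSG00000028936; chromosome 4, 152325742 to 152334071), which encodes the ribosomal protein that carries the tag in this mouse line, was at 23.96 and 35.9 CPM in IP and at 76.2 and 76.1 CPM in input. Its log2 change of -1.07 did not pass the test (limma adjusted p = 0.271). The targeted allele is present in both fractions, so these levels do not check the labels.

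Of 15 listed outer hair cell markers, all tested, 1 rose (Ikzf2) and none fell (background 1.71% and 2.64%). All genes have a median of 0 by construction, and the median log2 change of these markers was 1.02. That median was 0.32 without IP replicate 1, 1.73 without IP replicate 2 and 0.26 without input replicate 2. For 6 of the 15 both IP libraries were above both input libraries, and for 2 they were below (background 18.2% and 31.2%). Those 2 are not among the members given here with values. Of the 15, 10 lay above the median of all genes. An unadjusted limma p under 0.05 was found for 2, and on reads recovered from the CPM edgeR called 3 and DESeq2 3. Of all genes, those shares were 20.2%, 13.7% and 22.2%. With TMM scaling 3 of the 15 were higher (background 9.58%) and none lower. The summed level of the 15 was 653 and 619 CPM in IP and 283 and 294 CPM in input. Chrna10, a subunit of the acetylcholine receptor at the efferent synapse, was at 9.39 and 8.76 CPM in IP and at 0.454 and 4.01 CPM in input. Its partner Chrna9 was at 23.99 and 1.83 CPM in IP and at 7.47 and 0.434 CPM in input. Both IP values of Chrna10 exceed both input values, those of Chrna9 overlap with input, neither gene passed the test, and Chrna9 changed direction without IP replicate 1 (log2 -0.30 against 1.54). Bcl11b, a zinc-finger transcription factor, was at 5.24 and 10.2 CPM in IP and at 0.227 and 4.97 CPM in input. Lbh, a transcriptional cofactor, was at 194 and 118 CPM against 57.2 and 68.6 CPM. The Lbh values do not overlap, but limma gave an adjusted p of 0.303.

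Markers of both hair cell types had a median log2 change of 0.86 over 17 tested members. None was called as deposited, and 5 were higher with TMM scaling (background 9.58%). At an unadjusted limma p under 0.05 there were 3, of which 2 were higher and 1 lower in IP, and edgeR called 4 and DESeq2 8 on reads recovered from the CPM. Of all genes, limma gave 20.2% an unadjusted p under 0.05, and edgeR called 13.7% and DESeq2 22.2%. For 8 of the 17 both IP libraries were above both input libraries, and for 2 they were below (background 18.2% and 31.2%). Several members are transcription factors. Isl1 was at 67.3 and 46.5 CPM in IP and at 19 and 20.5 CPM in input. Rfx3, which acts in cilium formation and hair cell survival, was at 24.98 and 24.4 CPM against 7.43 and 11.8 CPM. In both the groups were separate, with a limma adjusted p of 0.247 and 0.371. Pou4f3, which hair cells need to survive, was at 17.6 and 15.7 CPM in IP against 12.8 and 13.5 CPM in input (limma adjusted p = 0.911). Pvalb, a calcium-binding protein, lay lower in IP, at 48.4 and 37.0 CPM against 176 and 86.1 CPM in input (limma adjusted p = 0.187). Atoh1 and Cabp2 were listed at 0 in all 4 libraries.

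Genes of the mechanotransduction machinery and of the stereocilia had a median of 0.71 over 26 tested members, which was 0.46 without IP replicate 2 and 0.36 without input replicate 1. Both IP libraries were above both input libraries for 10 of them and below for 3 (background 18.2% and 31.2%). By limma none was called as deposited and 1 had an unadjusted p under 0.05, 2 were higher with TMM scaling (background 9.58%), and edgeR called 1 and DESeq2 4 (13.7% and 22.2% of all genes). Fscn2, which cross-links actin in stereocilia, was at 6.57 and 9.76 CPM in IP and at 0.0698 and 1.86 CPM in input (log2 2.64, limma adjusted p = 0.0988). Tmc1, a subunit of the transduction channel, was at 21.4 and 18.4 CPM in IP and at 7.21 and 7.32 CPM in input (limma adjusted p = 0.421). Espn, an actin bundler, was at 20.7 and 26.1 CPM against 7.43 and 10.4 CPM (limma adjusted p = 0.359). In each of these 3 both IP values exceed both input values, and Clic5, a protein of the stereocilia base, was at 11.2 and 11.9 CPM in IP against 25.5 and 18.7 CPM in input (limma adjusted p = 0.590). Channels and synaptic genes of hair cells had a median of 0.47 over 16 members (0.71 without IP replicate 2), with none called as deposited by limma, and 4 higher and 1 lower with TMM scaling (background 9.58% and 8.32%). edgeR called 4 and DESeq2 5 (13.7% and 22.2% of all genes). The 1 member at an unadjusted p under 0.05 was lower in IP, the ATP-gated channel gene P2rx2, at 5.86 and 10.1 CPM against 32.8 and 50.3 CPM in input (limma adjusted p = 0.1001). Atp2b2, the calcium pump of the stereocilia, was at 104 and 91.8 CPM in IP and at 34.1 and 55.1 CPM in input (limma adjusted p = 0.336).

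Inner hair cell markers lay lower, with a median of -0.77 over 10 tested members and none called by limma, with 2 at an unadjusted p under 0.05. With TMM scaling 1 was higher and 1 lower (background 9.58% and 8.32%), and edgeR called 2 and DESeq2 3 (13.7% and 22.2% of all genes). Of all genes, limma gave 20.2% an unadjusted p under 0.05. Otof, which inner hair cells use for transmitter release, was at 1.61 and 13.4 CPM in IP and at 12.9 and 21.6 CPM in input. Slc17a8, their vesicular glutamate transporter, was at 0.682 and 7.89 CPM in IP and at 5.32 and 13.4 CPM in input. For both genes the groups overlap, and IP replicate 1 was the lowest of the 4 libraries. Tbx2, a transcription factor of inner hair cell fate, went the other way, at 105 and 183 CPM in IP against 69.2 and 90.0 CPM in input (limma adjusted p = 0.556).

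**Figure D2:**
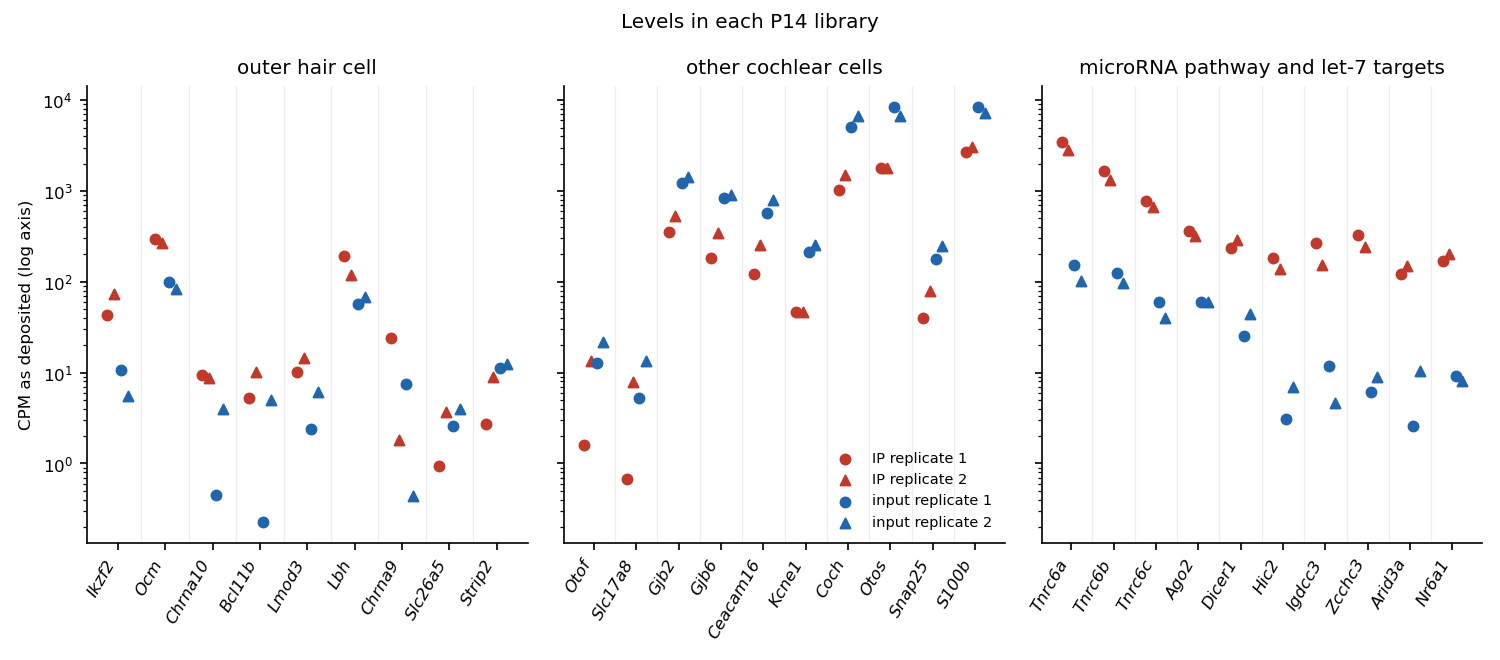
CPM on a log axis in each of the 4 P14 libraries, with IP in red and input in blue, circles for replicate 1 and triangles for replicate 2, for 9 outer hair cell genes, 10 markers of other cochlear cells and 10 genes of the microRNA pathway and of let-7 targets. Ikzf2 and Ocm are separate between fractions, and Kcne1, Coch and Otos stand lower in IP but remain abundant in it. The 10 genes of the right panel were chosen among called members of their lists and are separate by a wide margin. Xpo5, Drosha and Gdf6 of those lists, which lay lower without being called, are not shown. The 9 outer hair cell genes are also a selection, from 15 listed.

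Marker lists of most other cochlear cells summed to less in IP than in input, with the endothelial list as the exception, and none was absent from IP. The listed markers of the stria vascularis, the tissue that drives the endocochlear potential, summed to 1662 and 1910 CPM in IP and to 4210 and 5120 CPM in input. Their median was -1.11 over 12 tested members, 1 of which fell (background 2.64%, as for the list that follows). This was Kcne1, a potassium channel subunit of marginal cells, at 46.7 and 46.5 CPM in IP and at 211 and 257 CPM in input (log2 change -2.02, SE 0.69, limma adjusted p = 0.0425). The 12 markers of fibrocytes and mesenchyme summed to 5346 and 6349 CPM in IP and to 18840 and 19240 CPM in input, with a median of -1.16. Of these Lum, an extracellular matrix proteoglycan, fell, at 41.8 and 36.0 CPM in IP against 201 and 201 CPM in input (log2 change -2.07, SE 0.72, limma adjusted p = 0.0451). Coch, the most abundant protein of the inner ear's matrix, was at 1027 and 1483 CPM in IP against 5080 and 6694 CPM in input (limma adjusted p = 0.142).

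Bone and cartilage markers had 2 of 12 tested members lower (background 2.64%, as for the lists that follow), Spp1 (osteopontin) and Mepe, both matrix phosphoproteins of bone. Spp1 was at 298 and 294 CPM in IP and at 1434 and 2106 CPM in input (log2 change -2.28, SE 0.76, limma adjusted p = 0.0398). The list summed to 7479 and 9538 CPM in IP and to 18340 and 16470 CPM in input, with a median of -0.83 (-0.55 without input replicate 1). Erythroid markers summed to 287 and 199 CPM in IP against 1094 and 727 CPM in input, and 1 of 8 fell, the beta-globin gene Hbb-bs, whose reads may be shared with its near-identical copy. Neutrophil and myeloid precursor markers summed to 19.1 and 26.7 CPM against 93.9 and 145 CPM, and 2 of 10 fell, the granule genes S100a8 and Mpo. Each of these calls on markers of non-sensory cells was lost without IP replicate 1, without input replicate 1 and without input replicate 2. IP and input differ in the cells they represent and in the step of the pulldown, and a lower value in IP cannot be assigned to either.

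By limma no member was called as deposited for spiral ganglion neurons (13 tested, median -1.02), Schwann cells (11, median -0.93), macrophages (10, median -1.35), endothelium (9, median 0.23) or supporting cells (18, median -0.24). At an unadjusted limma p under 0.05 the counts, in that order, were 5, 2, 4, 0 and 4, and edgeR called 2, 0, 0, 1 and 6 of them and DESeq2 4, 2, 0, 2 and 6. Of all genes, 3787 (20.2%) had an unadjusted p under 0.05 at P14, and edgeR called 13.7% and DESeq2 22.2%. Without IP replicate 2 the median was -0.85 for macrophages, 0.60 for endothelium and, with the sign turned, 0.46 for supporting cells. Without IP replicate 1 it was 0.43 for endothelium and -0.43 for supporting cells. Without input replicate 1 it was -0.45 for Schwann cells and -0.02 for supporting cells, and without input replicate 2 it was -1.54 for Schwann cells. Endothelial markers summed to 300.1 and 324 CPM in IP and to 277 and 315 CPM in input. Macrophage markers summed to 62.7 and 51.7 CPM against 162 and 140.2 CPM. Spiral ganglion markers summed to 597 and 596 CPM in IP and to 1104 and 1245 CPM in input. Schwann cell markers summed to 4168 and 4527 CPM against 12410 and 9853 CPM. Supporting cell markers summed to 2034 and 2576 CPM against 3785 and 4551 CPM. With TMM scaling 3 of them were higher and 3 lower (background 9.58% and 8.32%). Gjb2, the connexin that couples supporting cells and fibrocytes, was at 357 and 533 CPM in IP and at 1228 and 1432 CPM in input. Cdkn1b, a cell cycle inhibitor that keeps supporting cells quiescent, was at 289 and 248 CPM in IP and at 87.5 and 118 CPM in input. The part of these cells' RNA in the results below was not tested.

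Genes of the microRNA pathway and mRNAs known as targets of the let-7 microRNAs were among the largest increases at P14. MicroRNAs are short RNAs that guide an Argonaute protein to sites in the 3' untranslated region (UTR) of mRNAs, where bases 2 to 8 of the microRNA, its seed, pair with the site. Proteins of the GW182 family (Tnrc6a, Tnrc6b and Tnrc6c) bind Argonaute and recruit enzymes that remove the mRNA's tail. The let-7 family is abundant in differentiated cells and represses mRNAs of embryonic and growth programmes. The mature members of the family, from RefSeq on GRCm38.p6, share the seed shown in capitals, which is why matches to it can be searched for as a single heptamer. Of the family, 4 members are printed.
let-7a-5p: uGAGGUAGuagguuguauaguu
let-7c-5p: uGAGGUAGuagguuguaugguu
let-7i-5p: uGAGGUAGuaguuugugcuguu
miR-98-5p: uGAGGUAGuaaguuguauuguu

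Tnrc6a (ENSMUSG00000052707; chromosome 7, 123123885 to 123195296) was at 3499 and 2819 CPM in the IP libraries and at 153.5 and 102.9 CPM in the input libraries. The lowest IP value is far above the highest input value. The log2 change was 4.91 (SE 0.76, limma adjusted p = 0.000272), and the call held when each of the 4 libraries was left out in turn. Tnrc6b was at 1658 and 1326 CPM in IP and at 124 and 97.6 CPM in input, with a log2 change of 4.02. Tnrc6c was at 785 and 661 CPM in IP and at 60.2 and 40.5 CPM in input, with a log2 change of 4.12. As deposited, on the log2(CPM + 1) scale, the 3 members of the family were thus 24.8-, 13.4- and 14.3-fold higher in IP.

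Of 19 tested genes of RNA-induced silencing, 5 rose (background 1.71%) and none fell, with a median of 1.47. Beside the GW182 genes these were Dicer1, the enzyme that cuts microRNA precursors, and Ago2, the Argonaute that can slice its target. Dicer1 was at 238 and 287 CPM in IP and at 25.1 and 43.9 CPM in input (log2 change 3.21, SE 0.71). Ago2 was at 364 and 317 CPM in IP and at 59.8 and 59.3 CPM in input (log2 change 2.77, SE 0.74, limma adjusted p = 0.0388). The other Argonautes were not called, with log2 changes of 2.84 for Ago4, 1.41 for Ago3 and 1.18 for Ago1. Xpo5, which exports microRNA precursors from the nucleus, was at 1.33 and 6.51 CPM in IP and at 20.04 and 23.1 CPM in input (limma adjusted p = 0.105), and Drosha, which makes those precursors, was at 16.3 and 21.8 CPM against 29.8 and 30.8 CPM. For 16 of the 19 genes both IP libraries were above both input libraries, and for 2 they were below (background 18.2% and 31.2%). Without IP replicate 1 the count of higher calls in the list was 1, without input replicate 1 and without input replicate 2 it was 2, and without IP replicate 2 it was 3.

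Among 32 tested mRNAs listed as let-7 targets, 13 rose (background 1.71%) and none fell, with a median of 2.40. With TMM scaling 20 were higher and 1 lower (background 9.58% and 8.32%). The list was drawn up with earlier results of these data known, so that its count is a description. It sums to 2689 and 2535 CPM in IP and to 443 and 455 CPM in input. The 13 were Zcchc3, Hic2, Igdcc3, Prtg, Arid3a, Nr6a1, Plagl2, Arid3b, Trim71, Fign, Lrig3, Dicer1 and Cdc25a. Without IP replicate 1 the count was 5, without input replicate 1 it was 4, and without input replicate 2 it was 7. The embryonic regulators with which let-7 is classically linked were mostly low in both fractions. Lin28b, an inhibitor of let-7 maturation, was at 6.39 and 6.69 CPM in IP and at 0.192 and 0.0521 CPM in input (log2 3.02, limma adjusted p = 0.0789). Hmga2, a chromatin protein, was at 0.620 and 1.36 CPM in IP and at 0.0872 and 0.469 CPM in input, and Lin28a was at 0.0310 and 2.19 CPM against 0.0523 and 1.62 CPM.

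Zcchc3 (ENSMUSG00000074682; chromosome 2, 152411955 to 152415027), a nucleic-acid-binding protein of innate immune sensing, had the largest increase of the named genes, at 328 and 239 CPM in IP and at 6.05 and 9.07 CPM in input (log2 5.33, limma adjusted p = 9.6e-05). Hic2 (chromosome 16, 17233572 to 17263430), which encodes a transcriptional repressor, was at 181 and 139 CPM in IP and at 3.07 and 6.99 CPM in input (log2 5.08). Igdcc3 (chromosome 9, 65141189 to 65185872), a membrane protein of the immunoglobulin superfamily, was at 267 and 153 CPM in IP and at 11.8 and 4.59 CPM in input (log2 4.87). In each of these 3 genes the lower IP value is far above the higher input value. Trim71, a target known from development, was at 14.2 and 31.7 CPM in IP and at 0.611 and 0.660 CPM in input (log2 change 4.04, SE 0.94, limma adjusted p = 0.0145).

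The 3' UTRs of Zcchc3, Hic2, Igdcc3 and Trim71 hold the heptamer CTACCTC, the complement of the let-7 seed. Of the 32 listed targets, 25 hold at least 1 match. Dicer1, among those called higher, holds none. Gdf6 holds 2 and lay lower without being called (log2 -2.31). One match of each of 6 of the listed targets is printed with flanking bases. It is read on the gene's strand from GRCm38, with the match in capitals.
Zcchc3, chr2:152413263-152413269, minus strand: ttttattttaCTACCTCcctcctcata
Hic2, chr16:17262885-17262891, plus strand: gacccctcccCTACCTCaccttgctat
Igdcc3, chr9:65185722-65185728, plus strand: ctctcagcacCTACCTCagccggaatg
Prtg, chr9:72912573-72912579, plus strand: tgctgaatagCTACCTCagtttgctgt
Arid3a, chr10:79953910-79953916, plus strand: aagtttctttCTACCTCaggtcttttg
Nr6a1, chr2:38726593-38726599, minus strand: gggcattaaaCTACCTCatgtttctaa
The longer, 8-base match requires an A after the heptamer. Nr6a1, which encodes germ cell nuclear factor, holds 8 matches in its 3' UTR, Hic2 holds 4, and Igdcc3, Prtg, Arid3a and Zcchc3 hold 2 each. An A follows 3 of the 8 in Nr6a1, 1 of the 4 in Hic2, both in Igdcc3, 1 of the 2 in Prtg and in Arid3a, and neither in Zcchc3. The match printed is one followed by an A where the gene has one. A match is a description of the sequence and does not show binding.

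Across 14851 coding genes with an annotated transcript, 9.09% held at least 1 let-7 heptamer in the 3' UTR. Among the 172 of them that were higher in IP, the share was 33.7% (58 genes), and among the 386 that were lower it was 3.63%. Median 3' UTR length was 1808.5 bases in the higher genes, 434 in the lower genes and 959 in all. The part of length in these shares was not tested. The median log2 change was higher with each further match. It was -0.14 for 13501 genes with no match, 0.46 for 1182 genes with 1, 0.86 for 141 genes with 2 and 1.53 for 27 genes with 3 or more. Of these 4 classes, 0.844%, 3.30%, 8.51% and 25.9% were called higher. Genes with a match had a median 0.65 above genes without one, and this difference was 0.714 with IP replicate 1 alone and 0.618 with IP replicate 2 alone.

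The same was computed for 24 microRNAs of the ear and of other tissues that could be matched to a sequence. All 24 differences were positive, from 0.21 for miR-183-5p, a microRNA of hair cells, to 0.65 for let-7. The next were miR-30a-5p at 0.49, and miR-19b-3p and miR-26a-5p at 0.42 each. For every seed, a larger share of the 172 higher genes than of all coding genes held a match. Among the higher genes it was 40.1% for miR-30a-5p, 34.9% for miR-181a-5p and 33.7% for miR-15a-5p, beside 33.7% for let-7. Across all coding genes those shares were 14.4%, 16.5%, 21.5% and 9.09%. For miR-99a-5p the shares were 5.23% of the higher genes and 1.19% of all. Genes with a let-7 match had longer 3' UTRs, with a median of 2241 bases against 872. Within each of 5 equal bins of genes by 3' UTR length, the median of genes with a match exceeded that of genes without one. In the bin with the longest 3' UTRs the medians were 0.58 and 0.23, and in the bin next to the shortest 0.58 and -0.35. No test is attached to these medians, because genes of 1 library are not replicates.

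**Figure D3:**
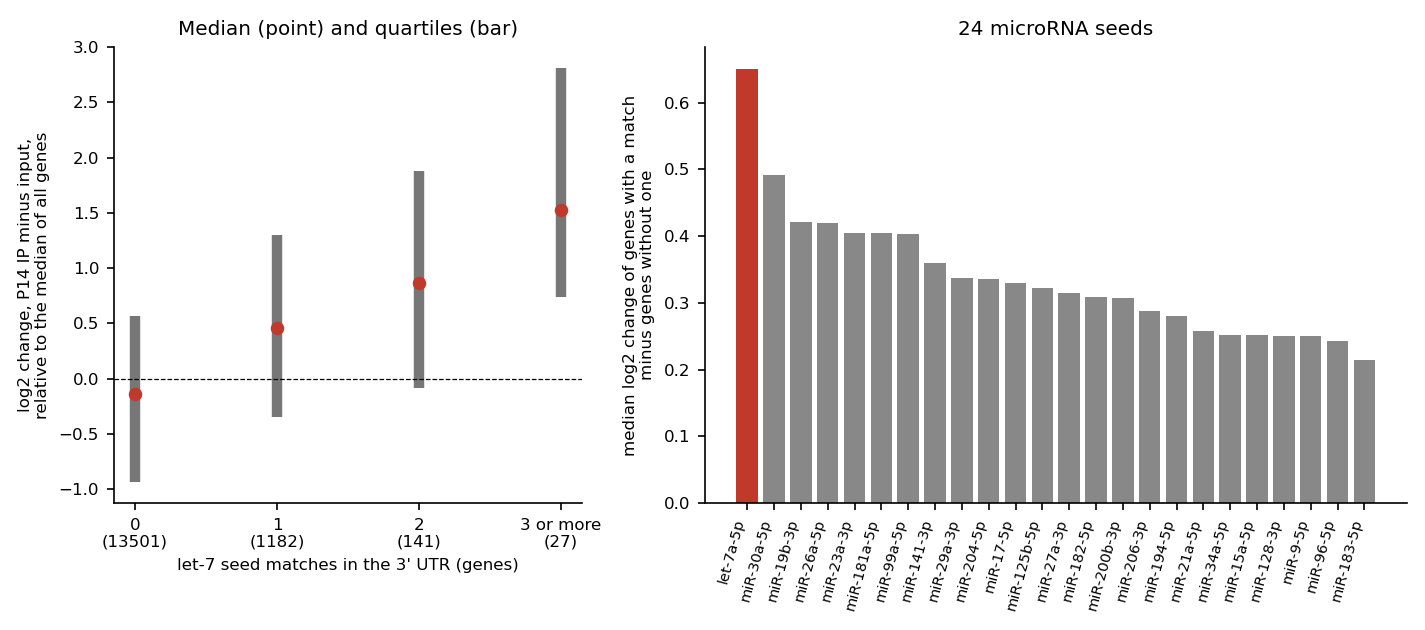
Left, median (points) and quartiles (bars) of the P14 log2 change relative to all genes, for coding genes by number of let-7 seed matches in the 3' UTR, with the number of genes in brackets. Right, the difference in median log2 change between genes with and without a match for each of 24 microRNA seeds, with let-7 in red at 0.65 and the next, miR-30a-5p, at 0.49.

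Of the 15 largest increases, among called genes averaging 5 CPM or more in IP and no overlap between fractions, 14 are named here, Zcchc3, Hic2, Tnrc6a, Igdcc3, Prtg, Bbc3, Arid3a, Nr6a1, Runx1t1, Plagl2, Lmbr1l, Arid3b, Yod1 and Swt1. Of the 15, 12 held at least 1 let-7 match (background 9.09% of all coding genes), and Tnrc6a, Bbc3 and Lmbr1l held none. Zcchc3, Hic2, Igdcc3, Prtg, Arid3a, Nr6a1, Plagl2 and Arid3b also belong to the let-7 list, which was drawn up with earlier results known. The 15 were chosen by the size of their change, so this count is a description. Bbc3, the pro-apoptotic protein PUMA, was at 46.1 and 41.3 CPM in IP and at 0.489 and 1.32 CPM in input (log2 4.86, limma adjusted p = 0.00237). Runx1t1, a transcriptional corepressor, was at 49.2 and 35.2 CPM against 0.698 and 2.35 CPM. Yod1, a deubiquitinating enzyme, was at 268 and 267 CPM against 15.5 and 16.6 CPM, the closest pair of replicates in the group. All 15 kept their direction when any 1 library was left out, and 7, 15, 6 and 14 of them stayed called without IP replicate 1, IP replicate 2, input replicate 1 and input replicate 2. With TMM scaling all 15 stayed called in each of those 4 cases.

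RNAs that remain in the nucleus or are not translated were also high in IP. All 8 tested members of that list lay above the median of all genes, with a median of 2.08, and 1 rose (background 1.71%). This was Kcnq1ot1 (chromosome 7, 143203458 to 143296549), an imprinted noncoding RNA, at 541 and 672 CPM in IP and at 38.2 and 43.2 CPM in input (log2 change 4.13, SE 0.67, limma adjusted p = 0.000597), a call that held without any 1 of the 4 libraries. Malat1, a nuclear noncoding RNA, was at 17400 and 19220 CPM in IP and at 4630 and 3480 CPM in input (limma adjusted p = 0.248). Meg3 and Rian, of the same list, were listed at 0 in all 4 libraries. By annotation, 22.43% of the 321 higher genes were transcripts that the annotation marks as still to be tested by experiment (biotype TEC), against 5.08% of all genes tested, and 5.30% were sense intronic, against 0.737%. TEC genes took 0.450% and 0.606% of gene reads in IP and 0.113% and 0.105% in input. The share of reads outside genes, given above, moved in the same direction, and its part in these results was not tested.

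Growth genes of fetal and neonatal tissue had a median of 1.56 over 13 tested members (1.02 without input replicate 2). Of the 13, 1 rose (background 1.71%, as for the list that follows). Sox11 (chromosome 12, 27334264 to 27342574), a transcription factor of immature neurons and other progenitors, was at 471 and 415 CPM in IP and at 24.6 and 35.2 CPM in input (log2 change 4.14, SE 0.73, limma adjusted p = 0.00121). H19, an imprinted noncoding RNA, was at 530 and 232 CPM in IP and at 173.5 and 45.9 CPM in input, and its neighbour Igf2, a growth factor, was at 460 and 337 CPM against 229 and 134 CPM. For both imprinted genes the groups were separate without passing the test (limma adjusted p = 0.130 and 0.448). Thyroid hormone, which the cochlea needs to mature before hearing begins, was represented by 11 tested genes with a median of 0.84 (0.30 without IP replicate 1 and 1.33 without IP replicate 2), of which 1 rose. Klf9 (chromosome 19, 23141226 to 23168134), a transcription factor induced by the hormone, was at 1168 and 1012 CPM in IP and at 193 and 135 CPM in input (log2 change 3.02, SE 0.77, limma adjusted p = 0.0297). The receptor genes were not called. Thrb, which hearing requires, was at 106 and 50.8 CPM in IP against 25.9 and 27.5 CPM in input (limma adjusted p = 0.268), and Thra was at 157.5 and 156.5 CPM against 105 and 106 CPM. The Sox11 call was lost without IP replicate 1 and without input replicate 1, and the Klf9 call without any 1 of the 4 libraries.

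**Figure D4:**
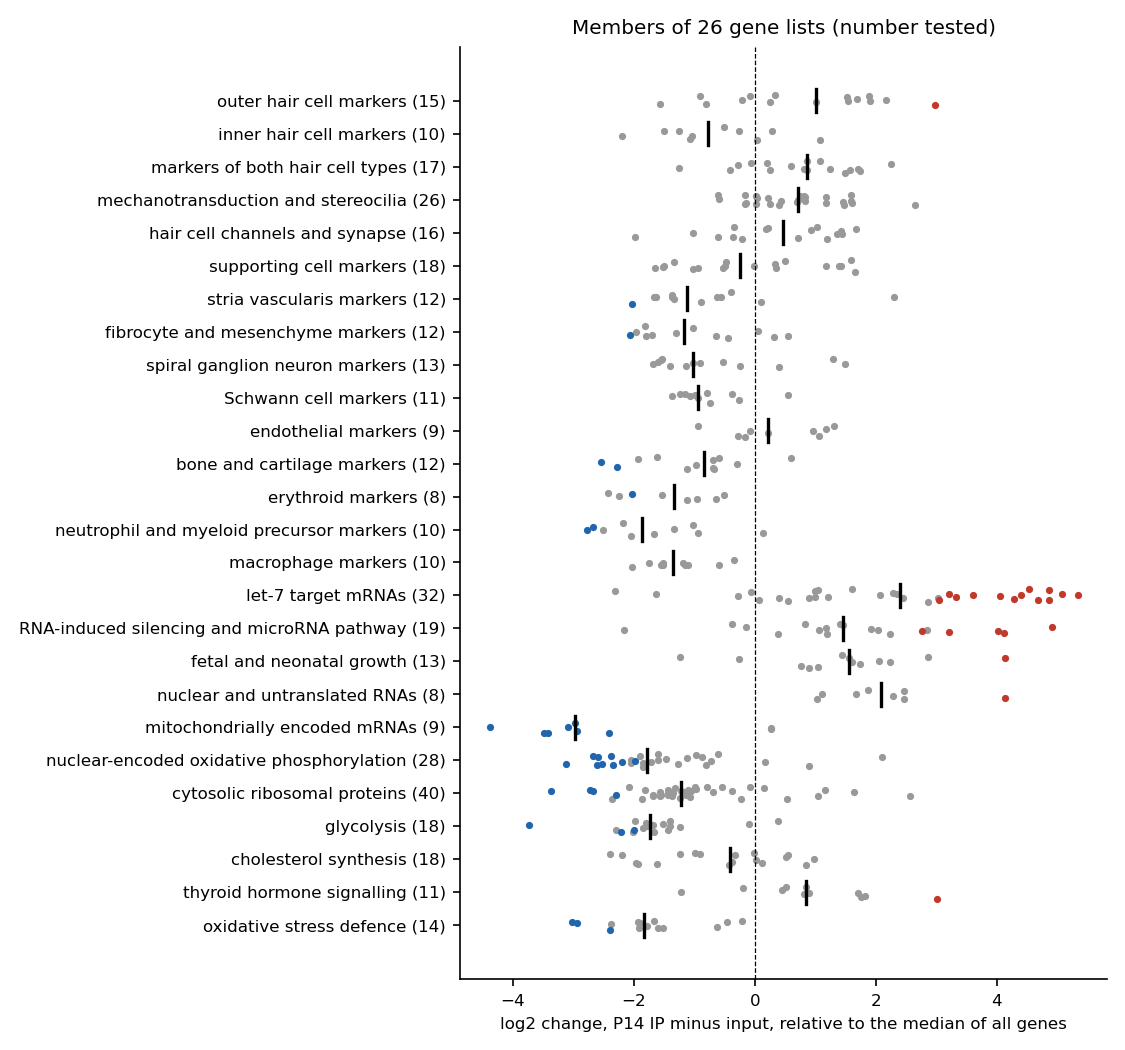
P14 log2 change relative to the median of all genes for each tested member of 26 gene lists, with the number tested in brackets, called genes in red (higher in IP) or blue (lower), others in grey, and list medians as black bars. Let-7 targets (median 2.40) and nuclear RNAs (2.08) lie farthest to the right, and mitochondrially encoded mRNAs (-2.97) farthest to the left.

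Genes of energy metabolism were among the largest decreases. Mitochondrially encoded mRNAs, which are translated inside the organelle on its own ribosomes, took 0.336% and 0.261% of gene reads in IP and 2.91% and 3.35% in input. Of 9 tested, 7 fell (background 2.64%), and the other 2, mt-Co2 and mt-Co3, were listed at 0 in all 4 libraries. The largest fall was of mt-Co1, a cytochrome c oxidase subunit, at 360 and 187 CPM in IP and at 5397 and 7933 CPM in input (log2 -4.38, means 274 ± 122 and 6665 ± 1793 CPM, SD, n = 2). Without IP replicate 1, input replicate 1 or input replicate 2 1 member stayed called, and without IP replicate 2 there were 4.

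Nuclear genes of oxidative phosphorylation were lower too. Of 28 tested, 9 fell (background 2.64%) and none rose, with a median of -1.78. For 25 of them both IP libraries were below both input libraries (background 31.2%). These backgrounds hold for the lists that follow. Those that fell were subunits of the ATP synthase (Atp5a1, Atp5b, Atp5e, Atp5j and Atp5o), of cytochrome c oxidase (Cox4i1, Cox6a1 and Cox8a) and of complex I (Ndufa1). Atp5a1 was at 69.6 and 153 CPM in IP and at 767 and 769 CPM in input (log2 change -2.61, SE 0.73, limma adjusted p = 0.0155). Ndufa1 was at 9.11 and 15.7 CPM in IP and at 154 and 121 CPM in input (log2 -3.12). Glycolysis genes had 3 of 18 lower, Eno1b, Hk1 and Tpi1, and 17 of 18 were below input in both IP libraries, with a median of -1.73. Eno1b is a near-identical copy of the enolase gene Eno1, so that reads of the copies may have been split. Peroxide-removing enzymes were among the 3 of 14 lower members of oxidative stress defence, namely Prdx1, Prdx3 and Prdx5, and both IP libraries were below both input libraries for all 14. Prdx5 was at 15.5 and 24.7 CPM in IP and at 209 and 195 CPM in input (log2 change -3.02, SE 0.71, limma adjusted p = 0.00419).

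Genes of cytosolic ribosomal proteins fell in 4 of 40 cases (Rps14, Rps2, Rpl32 and Rplp0; background 2.64%), with none higher and a median of -1.22. These mRNAs have many processed pseudogenes, so that part of their reads may have been counted elsewhere or nowhere. Rps14 was at 10.2 and 41.4 CPM in IP and at 274 and 269 CPM in input (log2 -3.37). For 31 of the 40, both IP libraries were below both input libraries (background 31.2%). Cholesterol synthesis had none of 18 called by limma, with a median of -0.40 (-0.22 without IP replicate 2). An unadjusted limma p under 0.05 was found for 5, and edgeR called 2 and DESeq2 4. Of all genes, those shares were 20.2%, 13.7% and 22.2%. Without IP replicate 1 or input replicate 1 no member of the nuclear oxidative phosphorylation, glycolysis, oxidative stress or ribosomal protein lists stayed called. Without input replicate 2 the counts were 0, 1, 0 and 1.

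The 15 largest decreases by the same rule were mt-Co1, Eno1b, Rnase1, Tspo, mt-Cytb, Inmt, Mageh1, mt-Nd2, Rps14, Scrg1, Lcat, Slc45a2, Adk, Qpct and Psma6. None of the 12 with an annotated 3' UTR held a let-7 match, beside 9.09% of all coding genes. Genes lower in IP had short 3' UTRs (median 434 bases, against 959 for all coding genes tested). The part of length in this count was not tested. Slc45a2, a transporter of pigment cells such as the intermediate cells of the stria, was at 2.23 and 4.59 CPM in IP and at 51.4 and 46.7 CPM in input (log2 -3.28, limma adjusted p = 0.0089). Tspo, a protein of the outer mitochondrial membrane, was at 2.17 and 9.27 CPM against 83.9 and 73.4 CPM, and Psma6, a proteasome subunit, was at 3.53 and 5.19 CPM against 66.9 and 52.3 CPM. All 15 kept their direction without any 1 library, while 1, 14, 1 and 6 of them stayed called without IP replicate 1, IP replicate 2, input replicate 1 and input replicate 2. With TMM scaling those counts were 14, 15, 13 and 14.

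Genes with long transcripts lay higher in IP than genes with short ones. The median transcript length was 3010 bases for all coding genes tested, 4222.5 for those higher and 1724 for those lower in IP. By 5 equal bins of transcript length the median log2 change was -0.58, -0.31, -0.06, 0.10 and 0.35 from the shortest to the longest. Median 3' UTR length was 1808.5 bases in the higher and 434 in the lower genes, and the GC content of the transcripts was 49.1% and 51.6%. Processed pseudogenes, which are short, made up 15.99% of the lower genes and 5.54% of all tested. Oxidative phosphorylation and ribosomal protein mRNAs are short, and the part of length in their values was not tested.

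At each other age of the series (P8, P28, 6 weeks and 10 weeks), most of the P14 changes lay on the same side of the median. Each change was taken relative to that age's median of all genes. Of the 321 genes higher at P14, 192 lay above the median at P8, 287 at P28, 287 at 6 weeks and 310 at 10 weeks, and 177 at all 4. Of the 494 lower genes, 436, 461, 485 and 483 lay below it, and 400 at all 4. By construction, about as many of all genes lie above each age's median as below it. That median was -0.026 at P28 and -0.0071 at 10 weeks, so a gene without reads at those ages counts as above it. At P8 it was 0.74 and at 6 weeks 0.27, so such a gene counts as below it there. How many of all genes lie on the same side at all 4 ages was not computed. P8 input replicate 2, which enters the P8 values, gave 58.3% of its gene reads to Gm42418. All 15 largest increases lay above the median at every age, and the plot by age shows 14 of them. The libraries of the ages are separate, but the genes were chosen at P14, where values are largest by that choice.

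**Figure D5:**
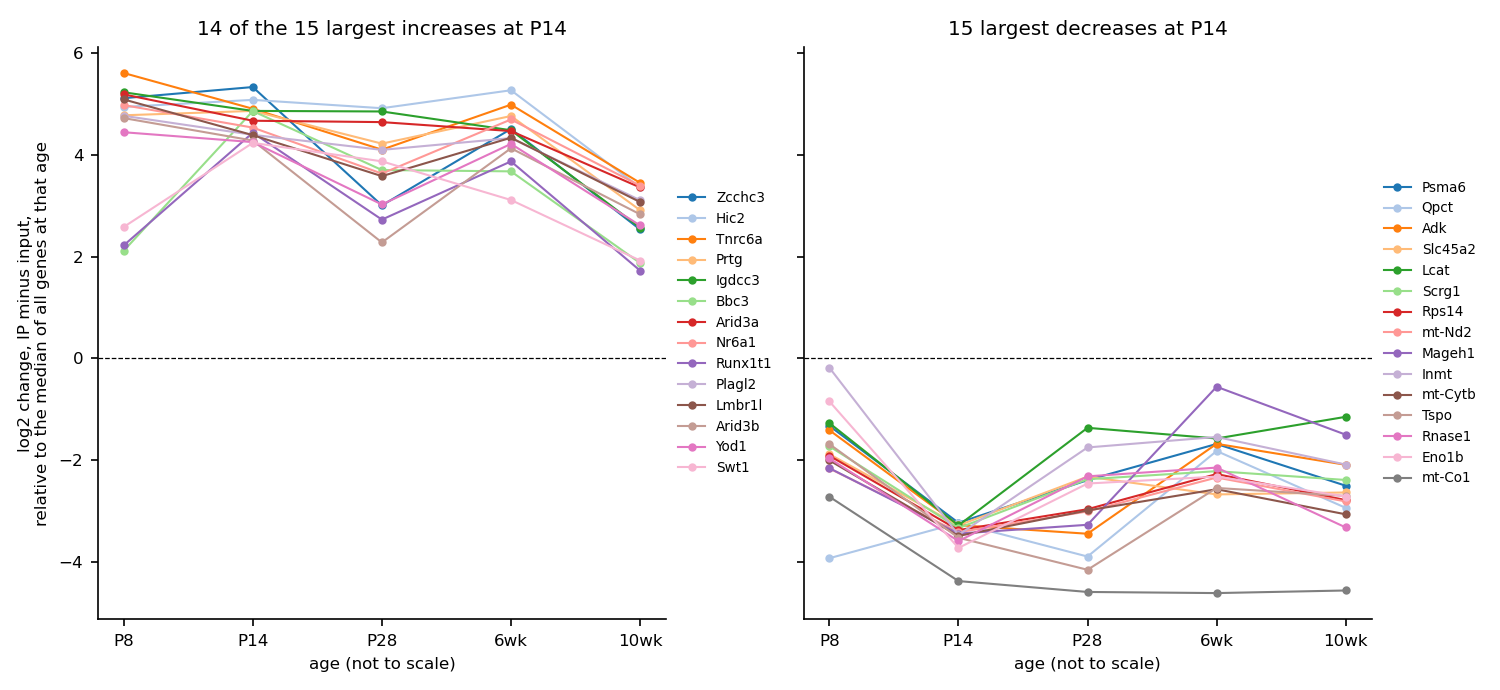
Log2 change, IP minus input, relative to the median of all genes at each age (ages not to scale) for 14 of the 15 largest increases (left) and the 15 largest decreases (right) at P14. All 14 increases stay above 0 and all 15 decreases stay below 0 at every age shown.

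Tests of whether the enrichment at P14 differed from that at other ages called few genes. Against the mean of the other 4 ages, limma called 0 of 18737 genes (0.00%), with 1515 at an unadjusted p under 0.05. edgeR's quasi-likelihood test on recovered reads also called 0, and DESeq2 called 188. Against P8 limma called 1 gene (0.00534%), and against P28 it called 3 (0.0160%). Without IP replicate 2, which leaves IP replicate 1 alone, the 3 counts were 246, 846 and 118. Without input replicate 1 the call against P8 and those against P28 were lost.

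The gene called against P8 was Ubtf (chromosome 11, 102304560 to 102319742), a transcription factor of RNA polymerase I that acts on ribosomal RNA genes. At P8 it was at 1647 and 1019 CPM in IP and at 109 and 12.1 CPM in input. At P14 it was at 59.9 and 65.7 CPM in IP and at 76.0 and 93.7 CPM in input. The difference of the log2 changes was -5.51 (SE 0.98, limma adjusted p = 0.0061), where the median of all genes was -1.25. P8 input replicate 2, the library with 12.1 CPM, gave 58.3% of its gene reads to Gm42418, and without that library Ubtf was still called (limma adjusted p = 0.00226). Against P28, Neurl2, an adaptor of a ubiquitin ligase, was at 7.78 and 3.48 CPM in IP and at 0.0349 and 0.0348 CPM in input at P14, and at 0.0301 and 0 CPM in IP and 1.82 and 7.23 CPM in input at P28. The other 2 genes against P28 were the predicted genes A930003A15Rik and Gm45484, named because the count was small and after their values were seen. All 3 were below 17 CPM in every library of the series, near the low end of what was tested.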

How the data were processed

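The authors deposited 1 table of CPM values per library, each scaled to the total of all reads, genes and 5 entries that name no gene together, as the column totals of 1000000 show. Per the submitters' processing notes, reads were aligned with TopHat to GRCm38. How reads were counted, and whether by strand, is not given in the sources used here, so reads of overlapping, antisense or near-identical genes could not be told apart. The 5 entries held 52.6% and 49.3% of the reads in IP and 38.8% and 35.5% in input, and were left out of all tests. All values (100%) were whole multiples of 1 read within 0.01, and those reads were used for the alternative count tests.

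The members, gene lists, tests and rules were chosen with earlier results of these data known. Tests covered genes that reached 1 CPM in 2 or more of 22 libraries, on log2(CPM + 1), which understates the change of low genes. limma 3.58.1 (R 4.3.3) fitted a mean for each of 10 groups of age and fraction with a trended prior, so all libraries share the estimate of spread, and tests were two-sided with Benjamini-Hochberg adjustment over all genes. Named genes are the 15 largest calls each way (averaging 5 CPM or more in the higher fraction, with separate fractions and leaving out symbols of predicted genes and pseudogenes), members of 26 lists (418 genes, 404 tested, 1 not matched), and Ikzf2, Ocm, Slc26a5 and Rpl22. Alternatives were a pseudocount of 0.25, no filter, other scalings, a replicate block, left-out libraries, a fit of P14 libraries alone, edgeR 4.0.16 and DESeq2 1.42.0. TMM scaling joined with left-out libraries was added after the data were seen. Seed matches were sought on the sense strand of 3' UTRs of GENCODE M21 transcripts, 1 per gene, for 14851 of 14878 coding genes tested, 228 of which have no 3' UTR. Of 30 microRNAs listed, 24 had a RefSeq sequence. The procedure was tested on simulated data. Depth limits precision through 1 read being worth 0.0174 to 0.0310 CPM. Values of 3 genes that these rules name are not reported here.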

Additional observations from a re-analysis of the deposited data

Results flagged for a closer look

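For 4 genes the enrichment in IP at P14 differed from that at another age by the limma interaction test. Ubtf differed from P8 by -5.51 on the log2 scale (SE 0.98, limma adjusted p = 0.0061), with 1647 and 1019 CPM in the P8 IP libraries against 109 and 12.1 CPM in P8 input, and 59.9 and 65.7 CPM in IP against 76.0 and 93.7 CPM in input at P14. The other input libraries of the series ran from 58.6 to 117 CPM, so that P8 input replicate 2 stands below them. Against P28, the difference was 4.85 for Neurl2 (limma adjusted p = 0.0424), 3.94 for Gm45484 (limma adjusted p = 0.0366) and -5.56 for A930003A15Rik (limma adjusted p = 0.00575). A930003A15Rik was at 0.155 and 0.0223 CPM in IP and at 9.37 and 1.55 CPM in input at P14, and at 5.50 and 16.4 CPM in IP and 0.0919 and 0.0463 CPM in input at P28. Gm45484 was at 15.03 and 4.46 CPM in IP at P14 and at 0.0602 and 0 CPM in IP at P28. Neurl2 was at 7.78 and 3.48 CPM in IP and 0.0349 and 0.0348 CPM in input at P14, and at 0.0301 and 0 CPM in IP and 1.82 and 7.23 CPM in input at P28. Without P14 input replicate 1 all 4 calls were lost (limma adjusted p = 0.094 for Ubtf and 0.229 for the other 3). Those of Ubtf, Neurl2 and Gm45484 were also lost without IP replicate 1 or without input replicate 2.

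Reads outside annotated genes, which enter no test, made up 30.5% of IP replicate 1 and 37.9% of IP replicate 2, against 12.2% and 12.4% of the input libraries. In the other 9 IP libraries of the series that share ran from 20.2% to 47.7%, and in the other 9 input libraries from 11.1% to 20.4%.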

How the results depend on the processing

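The direction of the 15 largest increases and decreases held under all 21 alternatives (20 for the mitochondrial genes, which 1 alternative removes). The number of calls did not hold. The 815 calls at P14 became 428 with a pseudocount of 0.25, 45 without a filter, 3354 with TMM scaling, 3601 with quantile normalization, 1621 over gene reads only, 3158 without mitochondrial, haemoglobin and Gm42418 genes, 3166 without P8 input replicate 2, 0 with the P14 libraries alone by limma (3353 at an unadjusted p under 0.05), 2566 with edgeR and 4156 with DESeq2. Leaving out 1 P14 library gave 19 to 1206 calls, and 1391, 2068, 2657 and 4669 with TMM scaling; TMM scaling without P8 input 2 and P28 IP 2 gave 4387. Where a group is left with 1 library, that library is assumed to vary like the other groups. Of the calls, 39.39% were higher as deposited, 53.52% with TMM scaling, 53.73% over gene reads only and 28.93% without P8 input replicate 2. Deviations of same-numbered IP and input libraries correlated at 0.097 at P14, 0.0776 at P8, 0.0405 at P28, 0.304 at 6 weeks and 0.11 to 0.214 at 10 weeks. Not every pair was over 0.1, and the labels do not say what a number marks, so pairing was not assumed. At P14 the column headers also share an identifier between an IP and an input library, and what it marks is not stated. If it marks a shared specimen, the main fit ignores that pairing. The replicate block gave 1002 calls (383 higher, 619 lower), and 3469 with TMM scaling. At 10 weeks each IP library correlated best with the input of its own number. At ages with 2 libraries per fraction, the correlations are 1 value and its negative by construction, so they do not speak for each library separately.

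Counts of called list members went from 54 to 1 without a filter, 156 with TMM scaling, 171 with quantile normalization, 106 over gene reads only, 158 without mitochondrial, haemoglobin and Gm42418 genes, 179 with the block and TMM scaling, 170 without P8 input 2, 0 with P14 libraries alone, 138 with edgeR, 181 with DESeq2 and 188 with TMM scaling without P8 input 2 and P28 IP 2. Leaving out 1 P14 library gave 8 to 45, and 82, 128, 129 and 152 with TMM scaling.

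Against the mean of the other ages, the 0 calls became 26 without a filter, 1 without mitochondrial, haemoglobin and Gm42418 genes, 188 with DESeq2, 0 to 246 with a library left out and, with TMM scaling as well, 0, 9 or 1979, the last without IP replicate 2. Against P8, the 1 call became 18 without a filter, 4 with the block, 2 with edgeR, 355 with DESeq2, 0 with TMM scaling without P8 input 2 and P28 IP 2, 0 to 846 with a library left out and 0 to 950 with TMM scaling as well. Against P28, the 3 calls became 0 with a pseudocount of 0.25, over gene reads only, with the block and TMM scaling and without P8 input 2, 13 without a filter, 24 with TMM scaling, 12 with quantile normalization, 12 with the block, 13 with edgeR, 1070 with DESeq2, 72 with TMM scaling without P8 input 2 and P28 IP 2, 0 to 118 with a library left out and 1, 6, 41 and 1679 with TMM scaling as well. Chrna9 turned to -0.30 without IP replicate 1, -0.31 with TMM scaling as well and -0.0042 without input replicate 2, in a range over left-out libraries that reached 3.40. Slc26a5 turned to 0.30 with quantile normalization, 0.16 without IP replicate 1 and 0.18 with TMM scaling as well, and was as low as -0.57 with another library left out. The let-7 difference of 0.65 was 0.78 with TMM scaling and 0.87 with an 8-base match. The cause of these changes was not tested.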

Other observations

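Coding genes with a let-7 match in the 3' UTR lay above those without one at each of the other ages too. The difference of medians was 0.85 at P8, 0.49 at P28, 0.69 at 6 weeks and 0.39 at 10 weeks, beside 0.65 at P14. Genes with 3 or more matches had a median log2 change of 2.62 at P8, 1.53 at P14, 1.85 at P28, 2.09 at 6 weeks and 1.28 at 10 weeks. These are descriptions over genes with no test of a difference between ages.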
